A study of Mus musculus with 12 samples.

Results

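The 51 genes described here encode the machinery that licenses, unwinds and copies DNA during S phase, supplies its nucleotides and repacks the new strands into chromatin. They were chosen by symbol, from a list of genes with these functions, with earlier results of these data known. All 51 were found among the 55291 gene symbols of the count table. RNA-seq was made from the cytotoxic lymphocytes of mouse lymph node and spleen, CD8+ T cells that had been activated. The 4 groups were Dock8 KO cells in a bovine collagen gel at 2 mg/mL, Dock8 KO cells in media, WT cells in the same gel, and WT cells in media, with 3 libraries in each. All cells were activated and expanded for 3 days before the 24 h in gel or media. DOCK8 activates Cdc42, a small GTPase that directs actin assembly, and migrating T cells that lack it lose their shape in dense matrix. The labels give 3 mice per group but not whether media and gel cells came from the same mice, and the kind of Dock8 allele is not given in the sources used here, so p-values measure the spread between these libraries.

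Before S phase, the origin recognition complex, Cdc6 and Cdt1 load the MCM helicase onto origins, a step called licensing. Cyclin E with Cdk2, and the transcription factors of the E2F family, bring on S phase, when Cdc45 and GINS switch the helicase on, primase starts each strand and the polymerases extend it on the sliding clamp PCNA. Activated CD8+ T cells divide fast, and most of these genes are transcribed in step with the cycle, so their RNA in a bulk sample depends on how many cells are in or near S phase and on how much each cell makes. In bulk RNA, fewer cells in S phase and less of each transcript per cell cannot be told apart.

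Many genes named as E2F targets carry E2F sites near their start, and the promoter sequences at hand were searched for such sites. Promoter sequences of RefSeq on GRCm38.p6 were matched for 40 of the 51 genes. The 250 bases before each start were searched on both strands for TTTGGCGC, TTTCCCGC, TTTGCCGC and TTTCGCGC, the usual forms of the E2F site. A match was found for 10 of the 40 genes, 25%, against 3.94% of the 10863 genes tested that had a promoter entry. Below are 60 bases around a match in the 5 genes whose stretch overlaps no annotated exon, with the match in capitals, in the direction of the gene.
Mcm6: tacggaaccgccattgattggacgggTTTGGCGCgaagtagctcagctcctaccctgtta
Mcm5: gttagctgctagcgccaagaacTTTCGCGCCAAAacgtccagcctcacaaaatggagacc
Cdc6: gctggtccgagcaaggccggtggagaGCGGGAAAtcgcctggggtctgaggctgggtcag
Uhrf1: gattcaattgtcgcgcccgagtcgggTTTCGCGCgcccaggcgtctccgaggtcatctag
Pola1: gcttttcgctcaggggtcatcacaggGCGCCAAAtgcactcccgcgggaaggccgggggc
The Mcm6 stretch lies at chr1:128359719-128359778 on the minus strand and begins its match 47 bases before the start. The Mcm5 stretch, at chr8:75109334-75109393 on the plus strand, holds 2 matches that overlap, one on each strand. The Cdc6 stretch lies at chr11:98907987-98908046 and the Uhrf1 stretch at chr17:56304102-56304161, both on the plus strand and both inside the bounds that GENCODE gives the gene, in an intron. The Pola1 stretch lies at chrX:93632260-93632319 on the minus strand. The other 5 genes with a match were Orc1, Mcm7, Rfc3, Gins3 and Hells. A match of these letters is a description of the sequence and not evidence of a bound site.

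Totals ran from 28483064 to 61390702 counts per library, and all 51 genes entered the test, each with an average log2 CPM (counts scaled to 1000000 per library) of 3 or more. Dock8 itself was at 168, 161 and 158 CPM in the KO gel libraries and 126, 109 and 125 CPM in the KO media libraries, against 378, 410.5 and 449.6 CPM in WT gel and 362, 418 and 443 CPM in WT media. The CD8 T cell marker Cd8a was at 517 to 744 CPM over the 12 libraries. Cd8a, Cd8b1, Cd3e, Cd3g and Trac summed to 2133 to 2271 CPM in KO gel and 2146 to 2453 CPM in KO media. In WT cells they summed to 2418 to 2609 CPM in gel and 2412 to 2601 CPM in media. These T cell markers were thus also lower in KO gel than in WT gel, without overlap. Of 32 markers of other blood and stromal cells, 21 were under 1 CPM in every library, with S100a9 at 0 throughout. Summed, those 32 markers came to 526 to 543 CPM in KO gel, 429 to 467 CPM in KO media, 546 to 567 CPM in WT gel and 446 to 490 CPM in WT media, most of it from Ctla4 and Pecam1, which activated T cells also express. The KO gel libraries stood apart in breadth, with 28362 to 30104 genes expected to have a count at a common depth against 24336 to 25142 in the other 9. Mitochondrial transcripts took 2.27 to 2.61% of counts in KO gel and 1.34 to 2.31% in the other 9, ranges that overlapped through KO media library 2. One locus that resembles ribosomal RNA, CT010467.1, took 11.8% of the counts of WT gel library 2 and 8.09% of KO media library 3. The part of these library differences in the results below was not tested, except where values without those 2 libraries are given.

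All 51 replication genes were lower in KO gel than in KO media libraries, and none was higher. Together they took 0.459, 0.526 and 0.531% of the counts in the 3 KO gel libraries and 0.610 to 0.710% in the other 9. Their summed level was 4916 ± 349 CPM in KO gel and 6904 ± 109 CPM in KO media, beside 6878 ± 207 CPM in WT gel and 6773 ± 183 CPM in WT media (SD, n = 3 libraries each). The KO gel sum lay below each of the other 3 group sums by far more than the spread between libraries, and those 3 sums differed from one another by less than the SD of either WT group. The plot of summed levels by role shows KO gel lowest in each of 9 roles.

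**Figure D1:**
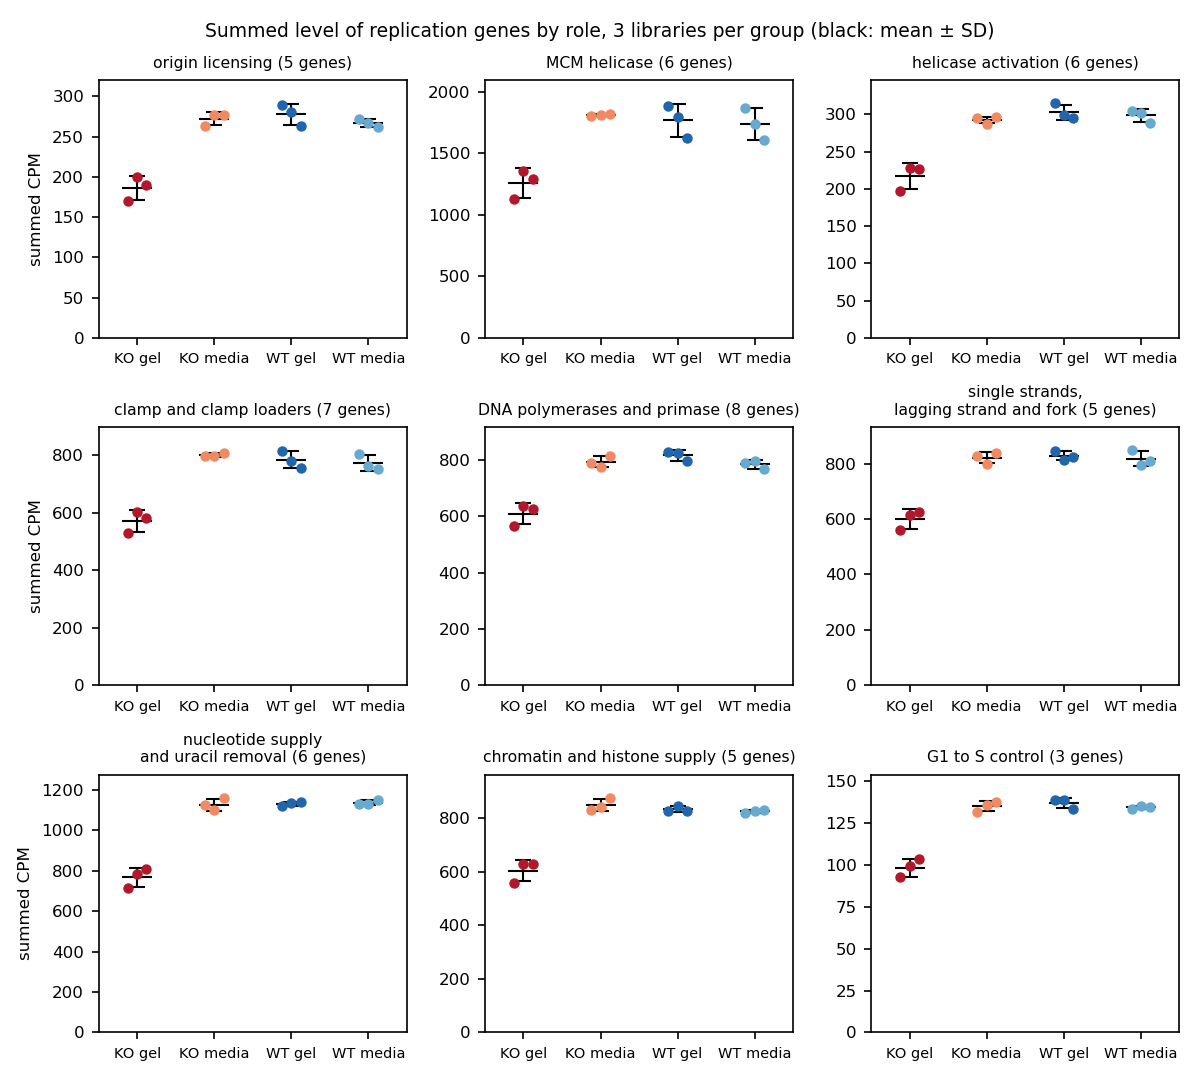
Summed CPM of the genes of each role (y axis, from 0) in the 4 groups (x axis), with 1 point per library and the mean ± SD in black. In all 9 panels the 3 KO gel points lie below the other 9 points. The sum over all 51 genes, which has no panel, was 4515 to 5153 CPM in KO gel against 6602 to 7064 CPM in the other libraries.

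In the test across 19010 genes with edgeR's quasi-likelihood method, all 51 passed an adjusted p of 0.05 as lower in KO gel than in KO media. For comparison, 9.74% of all genes tested were called lower there and 11.1% higher, and of the 9959 genes at an average log2 CPM of 3 or more, 16.8% were called lower. The log2 fold changes ran from -0.68 for Dscc1 to -0.29 for Prim2, with a median of -0.48, a level 28.4% lower in KO gel. The median over all genes tested was -0.01, and -0.08 for those at an average log2 CPM of 3 or more. Each of the 51 had its 3 KO gel libraries below its 3 KO media libraries. So had 23.9% of all genes tested, and 3701 of the 9959 at an average log2 CPM of 3 or more. For 49 of the 51 the KO gel libraries were also below all 9 other libraries, as they were for 11.3% of all genes tested, the exceptions being Orc1 and Ung. KO gel library 1 was the lowest of all 12 for 48 of the genes and KO gel library 2 for the remaining 3, Gins3, Hells and Ccne2. Without KO gel library 1, 48 of the 51 were called lower, with a median of -0.44, and without the 2 libraries rich in CT010467.1 also 48, with a median of -0.47. Over all genes, 944 and 917 were called lower in these 2 fits. When totals alone scaled the counts, 49 of the 51 were called lower, while the calls over all genes moved to 869 lower and 2007 higher, against 1851 and 2111 with the scaling used here.

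**Figure D2:**
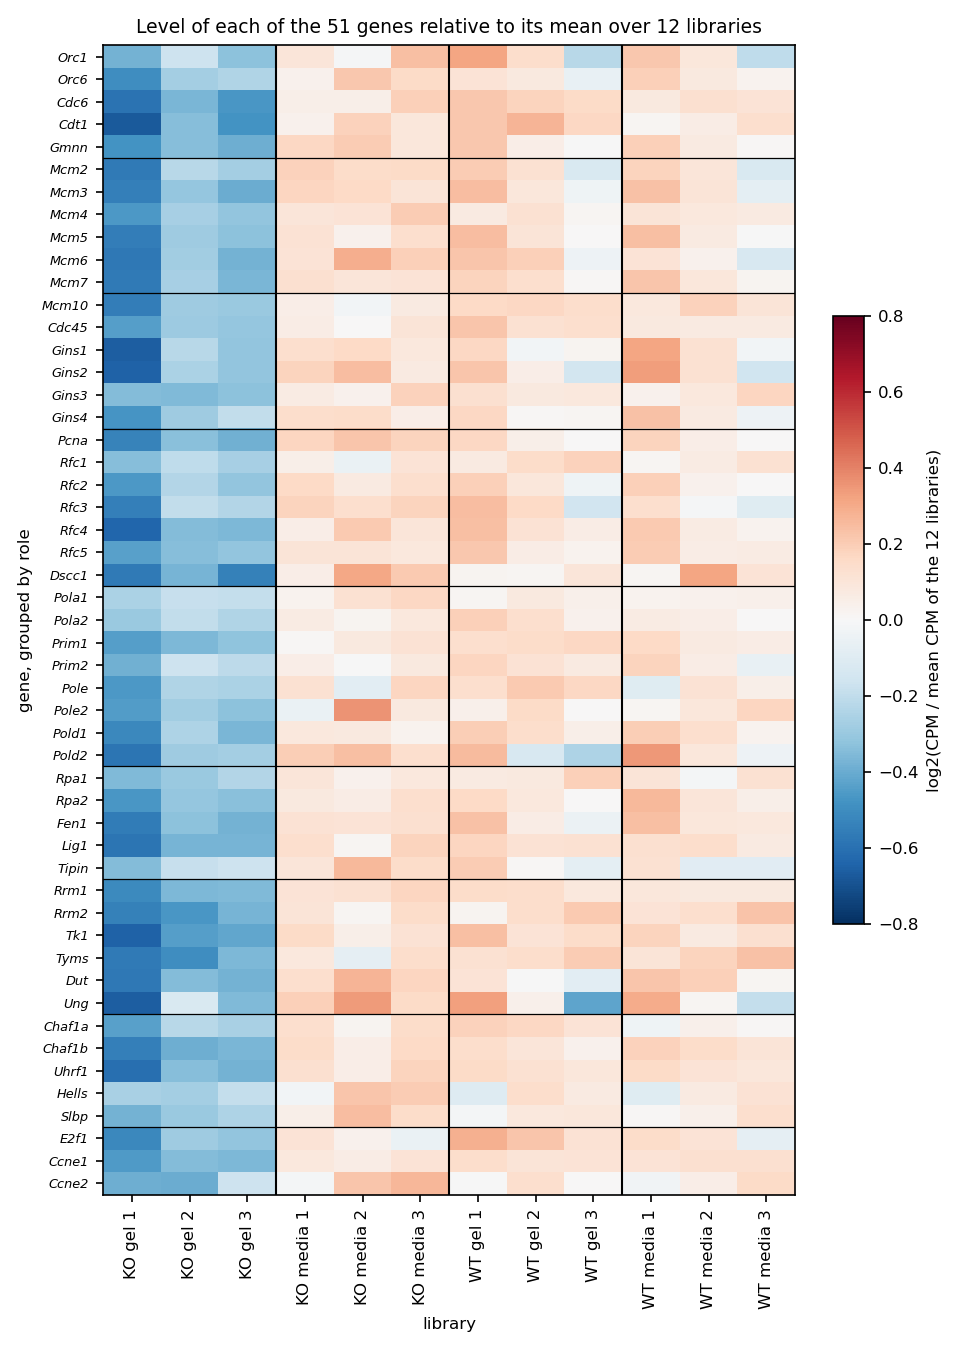
Level of each of the 51 genes (rows, grouped by role) in each of the 12 libraries (columns), as log2 of the CPM over the gene's mean over the 12 libraries. The 3 KO gel columns are blue for nearly every gene, darkest in KO gel library 1, while the other 9 columns are mostly pale or red, apart from low values of Ung and Pold2 in WT gel library 3.

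Against WT gel, the other group that shared the collagen, 48 of the 51 were called lower in KO gel and none higher, where 7.71% of all genes tested were called lower and 7.12% higher. Of those at an average log2 CPM of 3 or more, 13.3% were called lower. The log2 fold changes ran from -0.71 for Cdt1 to -0.26 for Pola1, with a median of -0.46. When totals alone scaled the counts, 35 of the 51 were called lower and the calls over all genes moved to 407 lower and 1875 higher, against 1465 and 1354. Without the 2 libraries rich in CT010467.1, 38 of the 51 were called lower, with a median of -0.48, and 690 genes in all were called lower. This comparison uses the same KO gel libraries as the one above and is not independent of it. The KO gel libraries were below every WT gel library for 49 of the 51 genes. They were so for 19.9% of all genes tested, and for 3145 of the 9959 at an average log2 CPM of 3 or more. The 3 genes that missed the threshold were Orc1 at -0.38 (adjusted p = 0.0708), Pold2 at -0.35 (adjusted p = 0.0827) and Ung at -0.37 (adjusted p = 0.186) on the log2 scale, all by edgeR's quasi-likelihood test. These 3 had the widest spread of the set in WT gel relative to their mean, where Ung was at 17.8, 14.6 and 10.6 CPM over the 3 libraries.

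Among WT cells the gel left no called change. None of the 51 was called between WT gel and WT media by edgeR's quasi-likelihood test, where 0.00526% of all genes tested were called lower and 0.0316% higher. At an unadjusted p under 0.05 there was 1 of the 51, Chaf1a at 0.15, against 5.43% of all genes tested, and DESeq2 and limma-voom also called 0. The log2 fold changes lay between -0.16 and 0.15, with a median of 0.01 and 22 of 51 below 0. Pcna is an example of what this size of experiment bounds in a fit without pairs. Its WT gel over media log2 fold change was -0.01, with an interval of 2 SE from -0.15 to 0.14. Between KO media and WT media the differences were of similar size. Again 0 of the 51 were called by edgeR, DESeq2 or limma-voom, with 1 at an unadjusted p under 0.05, Tipin at 0.19, against 0.163% of all genes tested called lower, 0.0263% higher and 7.49% at the unadjusted threshold. The log2 fold changes of KO media over WT media ran from -0.12 to 0.19, with a median of 0.02.

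**Figure D3:**
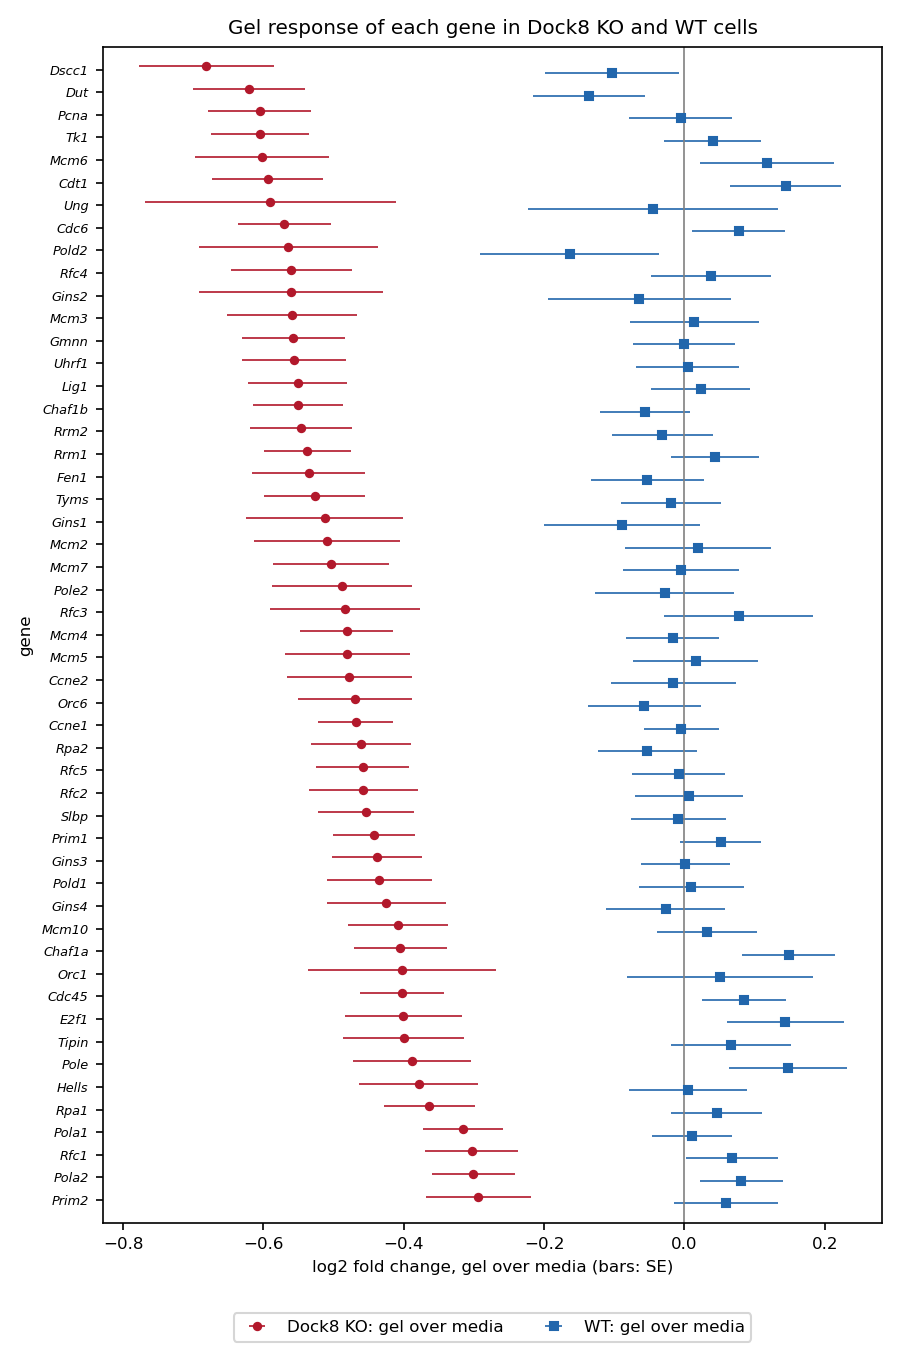
Log2 fold change of gel over media for each of the 51 genes (y axis, in order of the KO value), for Dock8 KO cells (red circles) and WT cells (blue squares), with bars of 1 SE. The KO values lie between -0.68 and -0.29, and the WT values lie between -0.16 and 0.15, around 0.

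Whether the gel response itself differed between genotypes was tested as an interaction, the KO gel over media change minus that of WT. All 51 estimates were below 0, from -0.74 for Cdt1 to -0.33 for Pola1, with a median of -0.49, and 37 were called lower by edgeR's quasi-likelihood test. Of all genes tested, 1.45% were called lower and 1.89% higher, and 2.66% of those at an average log2 CPM of 3 or more were called lower. The 14 that were not called were Orc1, Orc6, Mcm2, Gins1, Gins2, Gins4, Rfc3, Prim2, Pole2, Pold2, Tipin, Ung, Hells and Ccne2, with adjusted p from 0.0514 for Tipin to 0.252 for Ung. The count moved with the scaling and with single libraries, while all 51 estimates were negative in each of 20 alternatives. It was 4 when totals alone scaled the counts, where 24 genes in all were called lower and 458 higher against 276 and 360. It was 23 when the fit took only genes at an average log2 CPM of 3 or more, where 123 of 9956 were called lower. It was 0, with a median of -0.48 and 49 at an unadjusted p under 0.05, without the 2 libraries rich in CT010467.1, where 2 genes in all were called lower and 28 higher. Without KO gel library 1, 2 or 3 the count was 19, 27 and 20, with 87, 115 and 120 genes in all called lower. Without KO media library 1, 2 or 3 it was 23, 28 and 22, with 119, 239 and 144 in all. Without WT gel library 1, 2 or 3 it was 23, 19 and 41, with 150, 92 and 417 in all. Without WT media library 1, 2 or 3 it was 46, 16 and 23, with 957, 67 and 140 in all.

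Origin licensing genes fell with a median log2 change of -0.56, all 5 of them, in KO gel against KO media. Cdc6 (chr11:98907801-98923940 on GRCm38), the ATPase that recruits the MCM ring to the origin, was at 53.4, 62.4 and 58.2 CPM in KO gel libraries and 83.4, 83.1 and 91.9 CPM in KO media libraries, beside 84.9 to 93.5 CPM over the 6 WT libraries. No KO gel library reached any of the other 9. Cdc6 changed by -0.57 (SE 0.07, adjusted p = 0.000114) against KO media and by -0.66 (adjusted p = 5.32e-05) against WT gel on the log2 scale. Cdt1 (chr8:122568015-122573554), the loading partner of Cdc6 that is destroyed once S phase starts, was at 39.7, 49.96 and 45.4 CPM in KO gel and 64.6, 71.9 and 67.4 CPM in KO media. It was at 73.2, 76.3 and 70.8 CPM in WT gel and 63.9, 65.9 and 69.5 CPM in WT media, so that the KO gel libraries were the lowest and the WT gel libraries, each above all 3 of WT media, the highest on average. Its log2 change was -0.59 (SE 0.08, adjusted p = 0.000247) against KO media, -0.71 (SE 0.08, adjusted p = 0.000112) against WT gel and -0.74 (SE 0.11, adjusted p = 0.00612) for the interaction. Gmnn, which encodes geminin, the inhibitor of Cdt1 that accumulates in S, G2 and M phase, moved in the same direction. It was at 34.6, 38.0 and 36.7 CPM in KO gel against 54.1, 55.6 and 51.3 CPM in KO media, a log2 change of -0.56 (SE 0.07, adjusted p = 0.000223). Orc1, the largest subunit of the origin recognition complex, had the widest spread of the role. It was at 12.9, 14.9 and 13.3 CPM in KO gel, 17.9, 16.6 and 19.7 CPM in KO media and 20.9, 18.4 and 14.4 CPM in WT gel, so that KO gel overlapped WT gel library 3 but not KO media. Orc6, another subunit, changed by -0.47 against KO media. Orc1 is among 9 of the 51 genes that share over 10% of their exon bases with another gene. Gins2, Fen1 and Chaf1a are named for this below, and the rest of the 9 are not listed. Whether the counting used strand is not given in the sources used here.

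The MCM subunits, Mcm2 to Mcm7, form the ring that unwinds the double helix, and all 6 fell, by a median log2 change of -0.51. Mcm6 (chr1:128331590-128359664) was at 210.0, 258 and 240.1 CPM in KO gel and 337, 382 and 356 CPM in KO media. In WT cells it was at 364, 356 and 303 CPM in gel and 337, 320.3 and 286 CPM in media, so that KO media library 2 was the highest of all 12 and the 3 KO gel libraries the lowest. Mcm6 changed by -0.60 (SE 0.10, adjusted p = 0.00084) against KO media and by -0.72 (SE 0.14, adjusted p = 0.014) in the interaction. Mcm4 was at 197, 225 and 218 CPM in KO gel and 289, 292 and 312 CPM in KO media, with WT libraries at 274 to 294 CPM and a log2 change of -0.48 (SE 0.07, adjusted p = 0.000299). Mcm2, a common marker of cells licensed to divide, was at 114, 144 and 139 CPM in KO gel, 191, 187 and 187 CPM in KO media and 155 to 194 CPM over the WT libraries. The gap between KO gel library 2 and the lowest WT library was small, and the change was -0.51 (adjusted p = 0.00423) against KO media and -0.42 (adjusted p = 0.015) against WT gel, with the interaction at -0.53 (adjusted p = 0.0658). The other 3 subunit genes, Mcm3, Mcm5 and Mcm7, changed by -0.56, -0.48 and -0.50 against KO media. Per kilobase of exon, 5 of the MCM transcripts were of similar level within each group, from 50.6 CPM per kb for Mcm6 to 60.7 CPM per kb for Mcm5 in KO gel and from 74.8 for Mcm7 to 84.7 for Mcm5 in KO media. Mcm2 was lower per kilobase, at 19.0 CPM per kb in KO gel and 27.1 in KO media, over an annotated exon length of 6956 bases.

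Once loaded, the ring is switched on by Cdc45, the GINS complex (Gins1 to Gins4) and Mcm10. All 6 of these genes fell, with a median log2 change of -0.43. Cdc45 (chr16:18780447-18811987) was at 53.6, 59.4 and 58.5 CPM in KO gel, 75.7, 72.8 and 78.1 CPM in KO media, 84.8, 79.0 and 79.6 CPM in WT gel and 76.6, 76.4 and 76.4 CPM in WT media. The 3 WT media libraries were nearly identical, and no KO gel library came near any other group. Its log2 change was -0.40 (SE 0.06, adjusted p = 0.000534) against KO media, -0.51 (adjusted p = 0.00017) against WT gel and -0.49 (adjusted p = 0.0111) for the interaction. Gins3 was at 22.5, 22.4 and 22.7 CPM in KO gel, the tightest KO gel values of the set, against 29.9, 29.3 and 32.5 CPM in KO media, a log2 change of -0.44 (SE 0.06, adjusted p = 0.000456). Mcm10 was at 66.2, 79.6 and 79.1 CPM in KO gel, 101, 95.5 and 102 CPM in KO media and 109, 109 and 107 CPM in WT gel. Its gap to WT gel, -0.53 (adjusted p = 0.000398), was the largest of the role. Gins1 and Gins2, both under 20 CPM in KO gel, changed by -0.51 and -0.56 against KO media, and Gins4 by -0.42. Gins2 shares 67.3% of its exon bases with Gse1 on the opposite strand.

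PCNA, the sliding clamp that tethers the polymerases, is loaded by replication factor C (Rfc1 to Rfc5), and all 7 clamp and loader genes fell, with a median log2 change of -0.48. Pcna (chr2:132249162-132253314) was at 197, 226 and 218 CPM in KO gel and 321, 332 and 323 CPM in KO media. It was at 320.4, 295 and 286 CPM in WT gel and 323, 296 and 286 CPM in WT media, all well above the KO gel values. The log2 change was -0.61 (SE 0.07, adjusted p = 0.000145) against KO media, -0.49 (adjusted p = 0.000763) against WT gel and -0.60 (SE 0.10, adjusted p = 0.0111) for the interaction. Dscc1, a subunit of the alternative loader that also aids sister chromatid cohesion, had the largest fall of all 51 against KO media. It was at 10.1, 11.6 and 10.3 CPM in KO gel, 15.6, 18.6 and 17.3 CPM in KO media and 15.1 to 18.6 CPM over the WT libraries, a change of -0.68 (SE 0.10, adjusted p = 0.000375) against KO media. Rfc4 was at 28.2, 34.4 and 34.2 CPM in KO gel, 45.3, 50.7 and 46.7 CPM in KO media and 51.7, 47.4 and 45.7 CPM in WT gel, a change of -0.56 (adjusted p = 0.000655) against KO media and -0.58 (adjusted p = 0.000728) against WT gel. Rfc1, the large subunit, had the smallest fall of the role, at -0.30 (adjusted p = 0.00617) against KO media, and Rfc2, Rfc3 and Rfc5 lay between, at -0.46, -0.48 and -0.46.

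The 8 genes of the replicative polymerases and primase had the smallest median change of the 9 roles, -0.41, and all 8 were called lower against KO media. Prim1 (chr10:128015168-128030037), the catalytic subunit of primase that lays down the RNA primer, was at 63.1, 66.7 and 68.3 CPM in KO gel and 86.0, 90.5 and 92.9 CPM in KO media. It was at 93.7, 94.9 and 95.9 CPM in WT gel and 95.6, 89.8 and 89.1 CPM in WT media, and no KO gel value came near any of these. The log2 change was -0.44 (SE 0.06, adjusted p = 0.000223) against KO media and -0.52 (SE 0.06, adjusted p = 0.000104) against WT gel. Pold1, the catalytic subunit of polymerase delta on the lagging strand, was at 87.4, 106 and 97.3 CPM in KO gel, 133, 132 and 128 CPM in KO media and 127 to 143 CPM in the WT libraries, a change of -0.43 (adjusted p = 0.00147). Pole, its counterpart on the leading strand, was at 150.0, 175 and 173 CPM in KO gel, 224, 195 and 232 CPM in KO media, 227, 239 and 232 CPM in WT gel and 193, 224 and 213 CPM in WT media. WT gel was on average the highest group for Pole, and the interaction was -0.54 (SE 0.12, adjusted p = 0.0284). Pola1, Pola2 and Prim2, all of the polymerase alpha and primase complex, had 3 of the 4 smallest falls of the whole set against KO media, at -0.32, -0.30 and -0.29. Pole2, the second subunit of polymerase epsilon, changed by -0.49. Pold2, an accessory subunit of polymerase delta, changed by -0.56 (adjusted p = 0.00764) against KO media but was spread in WT gel, at 42.8, 32.9 and 30.3 CPM, against 24.0, 29.5 and 29.7 CPM in KO gel.

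Single-stranded DNA at the fork is coated by replication protein A (Rpa1 and Rpa2), the fork is steadied by Tipin, and fragments of the lagging strand are trimmed by Fen1 and joined by Lig1. All 5 genes fell, with a median log2 change of -0.46. Lig1 (chr7:13277283-13311433) was at 158, 182 and 183 CPM in KO gel and 259, 239 and 267 CPM in KO media. It was at 266, 257 and 258 CPM in WT gel and 259, 261 and 249 CPM in WT media, and the highest KO gel library lay well below the lowest of the other 9. Its log2 change was -0.55 (SE 0.07, adjusted p = 0.000192) against KO media, -0.58 (adjusted p = 0.000215) against WT gel and -0.57 (adjusted p = 0.0112) for the interaction. Fen1 was at 59.5, 69.7 and 67.4 CPM in KO gel and 94.99, 94.4 and 95.7 CPM in KO media, a change of -0.54 (SE 0.08, adjusted p = 0.00057), but 84.2% of its exon bases are shared with Gm10143 on the opposite strand. The replication protein A genes Rpa1 and Rpa2 changed by -0.36 and -0.46 against KO media. Tipin had one of the smallest gaps to WT gel, -0.28 (adjusted p = 0.0428), with 49.7, 55.5 and 56.3 CPM in KO gel and 72.8, 63.6 and 59.8 CPM in WT gel.

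Nucleotide supply had the largest median change of the 9 roles, -0.57, with all 6 genes lower in KO gel than in KO media. Ribonucleotide reductase makes deoxyribonucleotides, and its small subunit gene Rrm2 was the most abundant of the 51 per kilobase in every group, at 108 CPM per kb in KO gel, 158 in KO media, 162 in WT gel and 165 in WT media. By library, Rrm2 was at 282, 298 and 317 CPM in KO gel and 440.1, 415 and 455 CPM in KO media, a log2 change of -0.55 (SE 0.07, adjusted p = 0.000241). The large subunit gene Rrm1 was at 264, 292 and 294 CPM in KO gel and 403, 407 and 421 CPM in KO media, with the WT libraries at 395 to 414 CPM and a change of -0.54 (SE 0.06, adjusted p = 0.00011). The changes of both subunit genes differed by less than their SE. Tk1 (chr11:117815526-117826092), the thymidine kinase of the salvage route, was at 46.6, 53.6 and 54.6 CPM in KO gel, 81.1, 75.3 and 79.0 CPM in KO media, 86.0, 78.7 and 80.8 CPM in WT gel and 82.4, 76.6 and 79.7 CPM in WT media. All 9 libraries outside KO gel lay within a narrow band, and Tk1 changed by -0.60 (SE 0.07, adjusted p = 0.000101) against KO media, -0.67 (SE 0.07, adjusted p = 6.52e-05) against WT gel and -0.65 (SE 0.10, adjusted p = 0.00612) in the interaction. Dut, which removes dUTP, changed by -0.62 and Tyms, which makes thymidylate, by -0.53 against KO media. Ung, the glycosylase that cuts uracil out of DNA, was the least abundant per kilobase, at 2.02 CPM per kb in KO gel and 3.04 in KO media. Its libraries ran 8.97, 13.0 and 11.1 CPM in KO gel and 16.2, 17.9 and 15.7 CPM in KO media, a change of -0.59 (SE 0.18, adjusted p = 0.0325).

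Behind the fork, chromatin assembly factor (Chaf1a and Chaf1b) deposits new histones, Uhrf1 and the helicase Hells help copy DNA methylation, and Slbp binds histone mRNA. All 5 genes fell, with a median log2 change of -0.45. Uhrf1 (chr17:56303321-56323486) was at 245, 295 and 286 CPM in KO gel and 408, 386 and 421 CPM in KO media. It was at 414, 406 and 397 CPM in WT gel and 415, 402 and 396 CPM in WT media, and the means of KO media, WT gel and WT media differed by less than their SDs. Its log2 change was -0.56 (SE 0.07, adjusted p = 0.000241) against KO media, -0.56 (adjusted p = 0.000349) against WT gel and -0.56 (adjusted p = 0.0137) for the interaction. Chaf1b was at 39.6, 44.1 and 44.9 CPM in KO gel and 63.9, 60.01 and 64.6 CPM in KO media, a change of -0.55 (SE 0.06, adjusted p = 0.000114). Hells had the smallest change of the role, -0.38 (adjusted p = 0.00704), with 107, 107 and 113 CPM in KO gel and 127, 150.1 and 148 CPM in KO media. Slbp changed by -0.45 and Chaf1a by -0.40. Chaf1a shares 52.5% of its exon bases with Ubxn6 on the opposite strand.

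The 3 genes that control entry into S phase fell too, with a median log2 change of -0.47. E2f1 (chr2:154559407-154569892), the transcription factor that switches on many of the other genes named here, was at 20.1, 23.5 and 23.1 CPM in KO gel and 30.9, 29.3 and 27.7 CPM in KO media. It was at 34.9, 33.5 and 31.1 CPM in WT gel and 31.8, 31.0 and 27.2 CPM in WT media, so that the gap between KO gel and WT gel was wider than that between KO gel and either media group. Its log2 change was -0.40 (SE 0.08, adjusted p = 0.00479) against KO media, -0.58 (SE 0.08, adjusted p = 0.000635) against WT gel and -0.54 (SE 0.12, adjusted p = 0.0262) for the interaction. Ccne1, a cyclin E that activates Cdk2 at the start of S phase, had the smallest error of the set. It was at 43.8, 47.0 and 46.7 CPM in KO gel, 63.5, 62.4 and 64.5 CPM in KO media and 64.2 to 66.0 CPM over the WT libraries, a change of -0.47 (SE 0.05, adjusted p = 0.000101). The other cyclin E gene, Ccne2, was at 28.7, 28.6 and 33.6 CPM in KO gel and 37.2, 44.0 and 45.4 CPM in KO media, a change of -0.48 (SE 0.09, adjusted p = 0.00241), with a WT range of 37.0 to 41.9 CPM. Among the 40 genes with a promoter entry, the change against KO media was similar with and without an E2F match, at a median of -0.48 for 10 genes with one and -0.50 for 30 without.

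A wider list of 63 other replication genes, also chosen by function with earlier results of these data known, gave a more mixed picture. The part of that choice in the difference between the lists was not tested. In KO gel against KO media 43 were called lower and 1 higher, beside 9.74% and 11.1% of all genes tested. The median log2 change of the 63 was -0.35, and 30 to 52 of them were called lower over 21 alternatives. Among the falls with the smallest p were the kinase gene Cdk2 at -0.46 (SE 0.06, adjusted p = 0.000241) and the exonuclease gene Exo1 at -0.51 (SE 0.08, adjusted p = 0.000525). The 1 rise was Orc4, an origin recognition subunit, at 38.5, 32.9 and 36.2 CPM in KO gel and 23.6, 33.8 and 27.3 CPM in KO media, a change of 0.35 (SE 0.11, adjusted p = 0.0439). That call was lost in 9 of 21 alternatives, among them those without KO gel library 1 or 3, KO media library 1 or 3, WT gel library 2 or 3, WT media library 2 or the 2 libraries rich in CT010467.1. Its KO gel and KO media libraries overlapped, while every KO gel library was above every WT gel library, at 24.8, 26.1 and 27.8 CPM. Against WT gel 39 of the 63 were called lower and 1 higher, beside 7.71% and 7.12% of all genes tested. Over 21 alternatives 18 to 45 of the 63 were called lower. The lowest of these counts came with totals alone as the scaling, where 3 were called higher, and 26 were called lower without the 2 libraries rich in CT010467.1. In the interaction 17 of the 63 were called lower, beside 1.45% of all genes tested, with 0 to 33 of the 63 over 20 alternatives. Between WT gel and WT media and between KO media and WT media 0 were called by edgeR, with 0 and 1 at an unadjusted p under 0.05.

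The fall also took in genes of later cell cycle phases and the histones made in S phase. Of 30 genes of G2 and M phase, 25 were called lower in KO gel than in KO media and 0 higher, with a median of -0.30. Of all genes tested, 9.74% were called lower there and 11.1% higher, and 16.8% lower of those at an average log2 CPM of 3 or more. The count of the 30 was 13 when totals alone scaled the counts and 14 without the 2 libraries rich in CT010467.1. The 2 with the smallest p were Ube2c, which encodes a mitotic ubiquitin-conjugating enzyme, at -0.46 (adjusted p = 0.000152) and the mitotic kinase gene Aurkb at -0.50 (adjusted p = 0.00016). Of 20 histone genes, 19 were called lower and 0 higher, with a median of -0.51, led by the linker histone genes H1f1 at -1.003 (adjusted p = 4.6e-05) and H1f5 at -0.59 (adjusted p = 0.000601). Histone genes lie close together and are alike in sequence, so the counting could split reads among them. Against WT gel 27 of the 30 and 19 of the 20 were called lower, beside 7.71% of all genes tested. With totals alone as the scaling these were 8 and 13, where 407 of 19010 genes were. In the interaction, 4 of the 30 and 2 of the 20 were called lower, beside 1.45% of all genes tested, with 0 to 12 and 0 to 18 over the alternatives. Between KO media and WT media 0 of either list were called, but 29 of the 30 and 15 of the 20 estimates were below 0. For 11 of the 30 every KO media library was below every WT media library, as for 1109 of 19010 genes. A test of the 51 genes against these lists was not made.

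**Figure D4:**
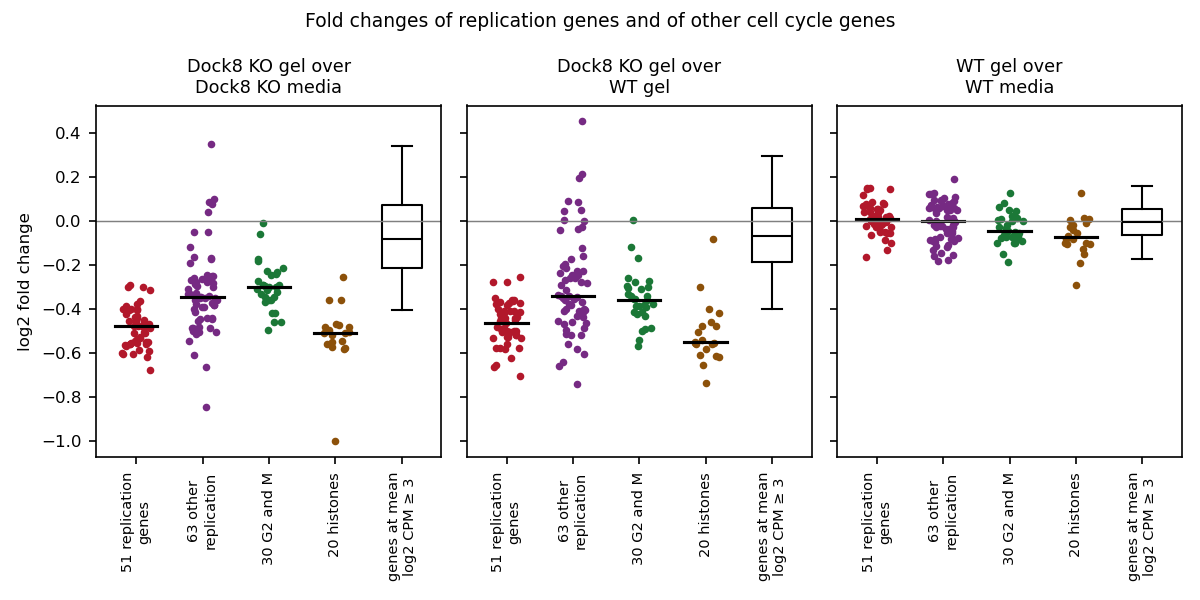
Log2 fold changes (y axis) of the 51 replication genes, 63 other replication genes, 30 G2 and M genes and 20 histone genes, 1 point per gene with the median as a black line, beside a box (quartiles, with whiskers at the 5th and 95th percentile) for the 9959 genes at an average log2 CPM of 3 or more. For KO gel over KO media the medians are -0.48, -0.35, -0.30 and -0.51, against -0.08 in the box, and for WT gel over WT media all lie between -0.08 and 0.01.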

How the data were processed

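The deposited table holds raw counts per gene symbol, made by the authors with HISAT2 on GRCm38 (mm10) and featureCounts, with FastQC, MultiQC, SAMtools and Picard also named, per the submitters' processing notes. Tool versions, gene annotation, strandedness and treatment of duplicates are not stated there. RNA was depleted of ribosomal RNA before library preparation, per the labels' protocols. Of 55291 symbols, 15905 had no count, and no column belonged to other samples.

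Genes were kept with edgeR's filterByExpr, which left 19010. Counts were scaled by TMM factors, and the 4 groups were fitted at once with edgeR's robust quasi-likelihood F test (R 4.3.3, edgeR 4.0.16, limma 3.58.1, DESeq2 1.42.0). A gene was called at p under 0.05 after Benjamini-Hochberg adjustment across the 19010. SE is the absolute log2 fold change over the square root of F, and CPM is the count per 1000000 of the scaled total. Exon lengths and shared bases come from GENCODE M21. Counts of replicate libraries exceeded Poisson noise in every pair (chi-square over its degrees of freedom, 13.3 to 172). This measure is summed over genes, so abundant loci weigh most, and what sets the error of single genes was not tested. The test of KO gel against KO media was also run on 12 simulated libraries of 18667 genes, with changes in KO gel alone. It found 28% of 50 genes altered by a factor of 1.25, 88% of those altered by 1.5 and 100% of those altered by 2. There were 4 false calls among 162. In the data 1851 genes were called lower and 2111 higher, far more than were altered in the simulation, so these shares may not hold for the data. Members and gene lists were chosen with earlier results of these data known, as was the choice of the 2 libraries left out together. Genes given by library were, per role, the 2 with the smallest p in KO gel against KO media, the one with the largest called change in each other comparison, and E2f1, Pcna, Mcm2 and Rrm2. Other members are named as the ends of a range or as exceptions. Other genes named were, per list, among those with the smallest p, and 1 gene that this rule selects is not reported here.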

Additional observations from a re-analysis of the deposited data

Results flagged for a closer look

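By edgeR's quasi-likelihood test of the interaction, the gel response was called different between the genotypes for 37 of the 51 replication genes. All 37 were lower, beside 1.45% of all genes tested called lower and 1.89% higher. The count fell to 4 with totals alone as the scaling and to 0 without the 2 libraries rich in CT010467.1. In each of the 37 the KO cells had lower levels in gel than in media. The WT changes lay between -0.16 and 0.15 and were not called, but a WT rise made up part of some interactions. The part played by the greater breadth of the KO gel libraries was not tested. The gene with the largest called interaction of each role carries that flag. In origin licensing it was Cdt1 at -0.74, where gel over media was -0.59 in KO and 0.14 in WT cells on the log2 scale. In the MCM ring it was Mcm6 at -0.72, from -0.60 in KO and 0.12 in WT cells. Cdc45, which switches the helicase on, was at -0.49, from -0.40 in KO and 0.09 in WT cells. The clamp gene Pcna was at -0.60 and the leading-strand polymerase gene Pole at -0.54, with a WT change of 0.15 for Pole. The ligase gene Lig1 was at -0.57 and the thymidine kinase gene Tk1 at -0.65. Uhrf1 was at -0.56 and E2f1 at -0.54, with a WT change of 0.14 for E2f1. With 3 libraries per group, Dixon's test for a single library far from the rest of its group was not applied.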

How the results depend on the processing

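Over 21 alternatives, 48 to 51 of the 51 genes were called lower in KO gel than in KO media and 35 to 51 lower than in WT gel, and 0 were called in WT gel against WT media or in KO media against WT media. Every one of the 51 estimates was negative in all alternatives of the first 2 comparisons and in all 20 of the interaction. The interaction count of 37 moved to 4 with totals alone as the scaling, to 23 with only genes at an average log2 CPM of 3 or more and to 0 without the 2 libraries rich in CT010467.1. With 1 library left out in turn it ran from 16 to 46, against 48 to 51 and 40 to 50 for the other 2 comparisons. The first 2 of these counts were 51 and 48 by DESeq2 and 50 and 47 by limma-voom, and the interaction was 44 and 37. The causes of these moves were not tested. Scaling by totals alone shifted the median of all genes by 0.10 in KO gel against WT gel, by -0.09 in WT gel against WT media and by 0.12 in the interaction. With the replicate number as a block, 51, 48 and 43 genes were called in KO gel against KO media, KO gel against WT gel and the interaction. Same-numbered libraries correlated at 0.06 to 0.51 between WT gel and WT media and at 0.06 to 0.17 between KO gel and KO media, and 5 of 6 libraries of each genotype correlated best with their own number. Not every pair passed 0.1 and no label states a pairing, so the block was not used. In WT cells some genes followed the number. Itgax, picked after its values were seen, was at 31.5, 23.2 and 13.4 CPM in WT gel libraries 1 to 3. In WT media libraries 1 to 3 it was at 32.1, 22.5 and 12.4 CPM. The block also joined WT and KO libraries of the same number, and pairs within each genotype were not fitted. The errors of WT gel against WT media and of the interaction therefore come from a fit without pairs. Depth was ample, with all 51 genes at an average log2 CPM of 3 or more, and changes below 1.5-fold in single genes were often missed by the test on simulated data.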

Other observations

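Within the wider replication list some pairs of related subunits differed, and the genes in this paragraph were picked after their values were seen. Of the origin recognition complex, Orc1 and Orc6 were called lower in KO gel than in KO media, at -0.40 and -0.47 on the log2 scale. Orc2, Orc3 and Orc5 were at -0.17 (adjusted p = 0.167), -0.05 (adjusted p = 0.541) and -0.17 (adjusted p = 0.179) by edgeR's quasi-likelihood test and were not called, and Orc4 was at 0.35 (SE 0.11, adjusted p = 0.0439), a call lost in 9 of 21 alternatives. Rrm2 fell while Rrm2b, the related small subunit that p53 induces, was at 19.9 ± 0.266 CPM in KO gel and 18.9 ± 1.01 CPM in KO media (SD, n = 3 libraries), a change of 0.07 (adjusted p = 0.517) by edgeR. The histone chaperone gene Asf1b was at 64.4 ± 6.25 CPM in KO gel and 91.2 ± 6.73 CPM in KO media, a change of -0.50 (adjusted p = 0.000705), and its relative Asf1a was at -0.05 (adjusted p = 0.617). Samhd1, which breaks down deoxynucleotides, was at 0.10 (adjusted p = 0.476) and the topoisomerase gene Top1 at 0.08 (adjusted p = 0.341). The differences within these pairs were not tested.

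Other short motifs were counted in the same 250 bases of the 40 promoters. The CCAAT box was found for 57.5% of the 40 genes and 40.5% of all genes tested with a promoter entry. The cell cycle homology region (TTTGAA or TTCGAA) was found for 17.5% and 15.4%, and the GC box bound by Sp1 (GGGCGG) for 72.5% and 61.4%. All were searched on both strands.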
